A study of Mus musculus with 12 samples.

Results

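Retinoid binding and uptake proteins were followed in mouse embryonic stem (ES) cells through 6 genes, Crabp1, Crabp2, Fabp5, Stra6, Rbp4 and Ttr. Every array probe that carried one of these gene names, an older symbol or a matching RefSeq accession was taken, which gave 6 probes, 1 for each gene, of 41174 probes and 21171 named genes on the array. The cells had been differentiated for 3 days with retinoic acid or were undifferentiated, with 3 biological samples in each group and 2 technical arrays for each sample. Strain, cell line, culture medium and the dose of retinoic acid are not given in the sources used here. Nothing states that the 3 samples of a group came from different cultures, and each p-value thus rests on the spread among these 6 samples, which may be technical.

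Retinol, which is vitamin A, travels in plasma on retinol-binding protein 4 (Rbp4), and transthyretin (Ttr) binds this complex and limits its loss through the kidney. The membrane protein Stra6 is a receptor for Rbp4 and lets retinol into the cell, where retinol can be oxidised to retinoic acid. Inside the cell, Crabp2 delivers retinoic acid to the retinoic acid receptors, Crabp1 holds it in the cytosol and is linked to its breakdown, and Fabp5 is a fatty acid carrier that can hand retinoic acid to the nuclear receptor Ppard. Stra6 takes its name from its stimulation by retinoic acid in mouse embryonal carcinoma cells.

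Levels are given as log2 of the quantile-normalized net spot intensity plus 50, so an intensity of 0 reads as log2 of 50 and differences of dim probes are understated. A probe was above background on an array when its signal passed the limit set by the 95th percentile of 27 negative control spots, which lay between 8.50 and 51.6 in net intensity. The median net intensity of the arrays was between 37.4 and 96.6, and 53.8% to 85.0% of probes were above the limit. Undifferentiated replicate 2 stood apart, with 80.0% and 85.0% of probes above limits of 8.50 and 9.24, against 53.8% to 68.0% on the other 10 arrays. Of 11 tested markers of pluripotent ES cells, 10 were lower in retinoic acid samples and 0 were higher, among them Tdgf1 (-5.83), Tcl1 (-5.08), Esrrb (-4.86) and Pou5f1 (-4.72), given as log2 differences. The summed normalized intensity of the markers was 36127 to 47522 in retinoic acid samples and 132774 to 186252 in undifferentiated samples.

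The cytosolic carriers, Crabp1 and Crabp2, and the plasma carrier Rbp4 were higher after 3 days of retinoic acid, and the uptake receptor Stra6 was not called. Crabp2 rose by 6.17, Rbp4 by 1.61 and Crabp1 by 1.39 on the log2 scale. Fabp5 and Ttr were too dim to test. In all, 3 of the 4 tested members were called higher and 0 lower at an adjusted p under 0.05 (limma, Benjamini-Hochberg over 26587 tested probes). Over all tested probes 14% were called higher, 11.5% lower and 25.5% in either direction. In bulk RNA, fewer cells of a type and less RNA per cell cannot be told apart.

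**Figure D1:**
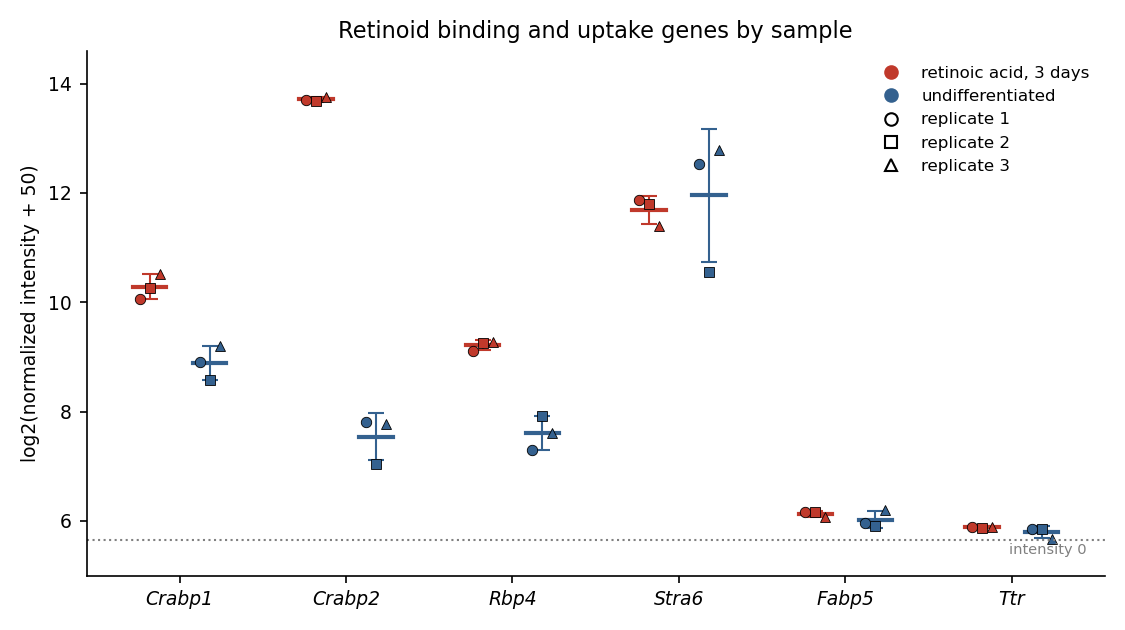
Level of each member in each sample, as log2 of normalized intensity plus 50, with retinoic acid samples in red to the left of undifferentiated samples in blue. Points are samples (mean of 2 arrays, shape by replicate), thick lines group means, bars 1 SD, and the dotted line an intensity of 0. Crabp2, Rbp4 and Crabp1 separate the groups, Stra6 has 1 low undifferentiated sample, and Fabp5 and Ttr lie near the dotted line.

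Crabp2, the carrier to the receptors, had log2 levels of 13.70, 13.68 and 13.76 in retinoic acid samples, against 7.81, 7.04 and 7.77 in undifferentiated samples. The 3 retinoic acid samples were all far above the 3 undifferentiated ones, and the groups did not overlap, as was the case for 42.4% of tested probes. In normalized intensity these were 13262, 13057 and 13816 in retinoic acid samples and 174, 81.8 and 168 in undifferentiated samples. The probe was above the limit on all 12 arrays, so the low group was measured and was not at background. The difference was 6.17 ± 0.23 (SE), with a 95% interval of 5.65 to 6.70 and an adjusted p of 8.70e-06 in limma. In size it ranked 7 among the rises of the 26587 tested probes. The retinoic acid samples had an SD of 0.04, larger than that of only 4.80% of tested probes, against an SD of 0.43 in undifferentiated samples (n = 3 each). Undifferentiated replicate 2 was the lowest sample, and without it the difference was 5.92, with an adjusted p of 2.33e-05. The difference was 6.63 when 1 in place of 50 was added before log2.

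Rbp4, the plasma carrier of retinol, had log2 levels of 9.11, 9.26 and 9.27 in retinoic acid samples, against 7.29, 7.92 and 7.60 in undifferentiated samples. Every retinoic acid sample was above every undifferentiated sample, and the probe was above the limit on all 12 arrays. Normalized intensities were 502, 563 and 567 in retinoic acid samples and 107, 193 and 145 in undifferentiated samples. The difference was 1.61 ± 0.19 (SE), with a 95% interval of 1.16 to 2.05 and an adjusted p of 0.00093. This was a rise larger than that of all but 3.39% of tested probes. The SD was 0.09 in retinoic acid samples and 0.31 in undifferentiated samples (n = 3 each). Unlike for Crabp2, undifferentiated replicate 2 was here the highest of its group, and without it the difference was 1.76.

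Crabp1, the other cytosolic retinoic acid carrier, had log2 levels of 10.06, 10.25 and 10.52 in retinoic acid samples, against 8.90, 8.58 and 9.20 in undifferentiated samples. The groups did not overlap, and the probe was above the limit on all 12 arrays. Normalized intensities were 1021, 1172 and 1420 in retinoic acid samples and 428, 334 and 537 in undifferentiated samples. The difference was 1.39 ± 0.21 (SE), with a 95% interval of 0.90 to 1.87 and an adjusted p of 0.00277. Its SD was 0.23 in retinoic acid samples and 0.31 in undifferentiated samples (n = 3 each). Without undifferentiated replicate 2 the difference was 1.23.

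Of the close paralogs Crabp1 and Crabp2, Crabp2 had the larger difference, with intervals (0.90 to 1.87 for Crabp1 and 5.65 to 6.70 for Crabp2) that did not meet. On the linear scale with 50 added, the differences of Crabp2, Rbp4 and Crabp1 were 72.2-fold, 3.05-fold and 2.61-fold. The calls of all 3 were kept under each of the 22 alternative settings, with differences of 5.92 to 6.63 for Crabp2, 1.45 to 1.91 for Rbp4 and 1.23 to 1.54 for Crabp1. Settings of the filter, blocks, variance model, threshold and handling of several probes (each member has 1) could not change these differences. Technical arrays of one sample differed by at most 0.08 for Crabp2, 0.21 for Rbp4 and 0.17 for Crabp1 in log2 level.

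**Figure D2:**
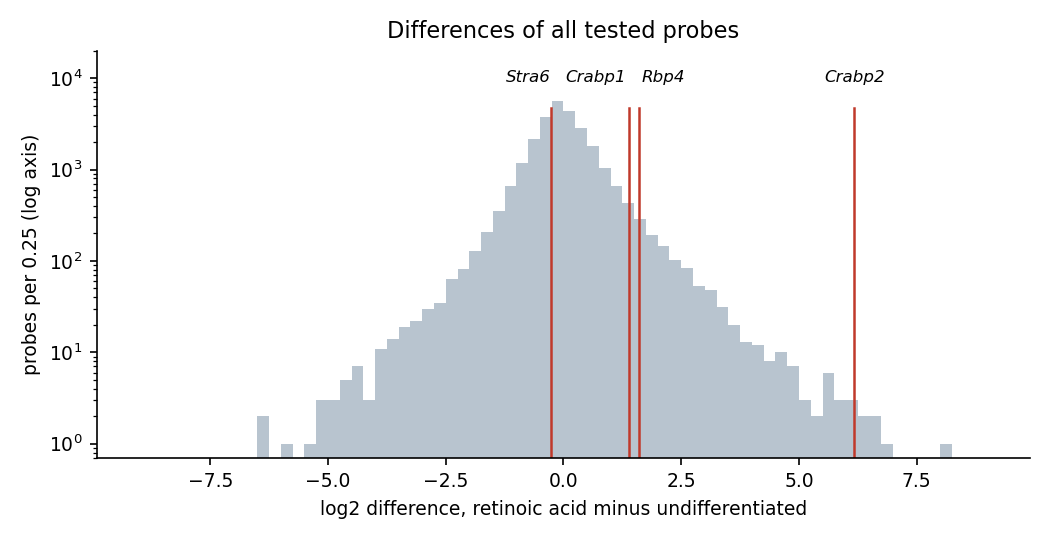
Log2 differences, retinoic acid minus undifferentiated, of the 26587 tested probes in bins of 0.25, with the number of probes on a log axis. Red lines mark the tested members: Crabp2 at 6.17 lies in the far right tail, Rbp4 at 1.61 and Crabp1 at 1.39 lie on the right flank, and Stra6 at -0.27 lies near the centre.

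The promoters of Crabp1 and Rbp4, which rose, and of Stra6, which was not called, are shown to set the letters upstream of these genes beside each other; those of Crabp2, Fabp5 and Ttr are not shown. They come from RefSeq (build GRCm38.p6), each as the 250 bases before a transcription start, 5′ to 3′ on the gene's strand. Capitals mark GGGCGG, the core of a GC box, read on either strand (CCGCCC on the other), and for Rbp4 also GGGTCA, a single retinoid receptor motif, which is spelled TGACCC when it lies on the opposite strand. The Crabp1 window is chr9:54764498-54764747 on the plus strand, that of Stra6 chr9:58128838-58129087 on the plus strand (the first of 4 listed starts), and that of Rbp4 chr19:38125322-38125571 on the minus strand (the first of 2 listed starts).
Crabp1: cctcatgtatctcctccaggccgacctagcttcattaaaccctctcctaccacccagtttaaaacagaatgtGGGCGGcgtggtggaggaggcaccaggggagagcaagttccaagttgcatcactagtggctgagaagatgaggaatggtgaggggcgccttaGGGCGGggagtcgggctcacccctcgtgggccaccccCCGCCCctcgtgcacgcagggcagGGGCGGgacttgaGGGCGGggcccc
Rbp4: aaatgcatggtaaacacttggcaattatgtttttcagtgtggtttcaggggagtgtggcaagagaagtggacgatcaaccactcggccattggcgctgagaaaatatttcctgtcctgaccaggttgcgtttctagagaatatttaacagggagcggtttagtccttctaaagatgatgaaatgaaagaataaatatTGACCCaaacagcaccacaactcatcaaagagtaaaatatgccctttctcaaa
Stra6: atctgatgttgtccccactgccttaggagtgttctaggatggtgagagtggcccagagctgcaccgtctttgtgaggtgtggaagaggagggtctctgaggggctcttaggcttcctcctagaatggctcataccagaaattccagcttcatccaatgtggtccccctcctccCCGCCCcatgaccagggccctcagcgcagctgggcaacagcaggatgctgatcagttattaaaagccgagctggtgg
The Crabp1 window held GGGCGG 5 times, the first Rbp4 window 0 times and the second 2 times, and the 4 Stra6 windows 1, 1, 0 and 2 times, where 32.7% of 32851 mouse promoter windows of this length hold it at least once. The motif TATAAA, the core of a TATA box, begins 28 bases before the second Rbp4 start and occurs in 12.4% of all windows. It is in capitals in this stretch at chr19:38124817-38124846 on the minus strand.
Rbp4 second start: ccggagcTATAAAggaccgacggccgctcg
Of the single receptor motifs AGGTCA and AGTTCA as well as GGGTCA and GGTTCA, read on both strands, at least 1 occurs in 38.6% of all windows. The first Rbp4 window held GGGTCA once, and its second window, the Crabp1 window and the 4 Stra6 windows held none of them. Direct repeats of these motifs spaced by 1, 2 or 5 bases, the arrangements that retinoid receptor pairs are known to bind, occur in 0.164%, 0.174% and 0.0883% of all windows and in none of the windows of Crabp1, Rbp4 or Stra6. A match is a run of letters and not a shown binding site, and no match says only that these letters are not in the window.

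Stra6, the receptor through which retinol enters, had log2 levels of 11.88, 11.79 and 11.39 in retinoic acid samples, against 12.52, 10.56 and 12.78 in undifferentiated samples. The undifferentiated samples lay on both sides of the retinoic acid samples, with replicates 1 and 3 above all of these and replicate 2 below them. Normalized intensities were 3716, 3492 and 2665 in retinoic acid samples and 5842, 1455 and 6988 in undifferentiated samples. The difference was -0.27 ± 0.54 (SE), with an adjusted p of 0.765. Its 95% interval of -1.52 to 0.98 spans falls and rises, so the data do not show that the level stayed the same. The SD was 0.26 in retinoic acid samples and 1.22 in undifferentiated samples (n = 3 each), and the SD of the undifferentiated samples exceeded that of 99.2% of tested probes.

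The low Stra6 value of undifferentiated replicate 2 was seen on both of its technical arrays, with log2 levels of 10.52 and 10.59. The undifferentiated arrays of replicate 1 read 12.60 and 12.45 and those of replicate 3 read 12.80 and 12.76. Without undifferentiated replicate 2 the groups did not overlap, and Stra6 was called lower in retinoic acid samples, with a difference of -0.97 and an adjusted p of 0.0152. Without undifferentiated replicate 1 or 3 the difference was 0.02 (adjusted p = 0.988) or 0.15 (adjusted p = 0.877). Undifferentiated replicate 2 therefore decided whether Stra6 was called, and the sign of its difference turned without either of the other samples of that group. This sample is the one whose arrays stood apart in the share of probes above the limit, and the part of that in the Stra6 value was not tested. It was the lowest of its group for 5 of the 11 ES cell markers and for 33.0% of all tested probes.

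Fabp5, the fatty acid carrier that can serve Ppard, had log2 levels of 6.16, 6.16 and 6.07 in retinoic acid samples, against 5.97, 5.91 and 6.20 in undifferentiated samples. The groups overlapped, and undifferentiated replicate 3 was the highest of the 6 samples. The probe was above the limit on 2 of 6 retinoic acid arrays and 2 of 6 undifferentiated arrays, short of the 4 arrays in either group needed for the test. Normalized intensities were 21.5, 21.4 and 17.1 in retinoic acid samples and 12.7, 9.97 and 24.5 in undifferentiated samples. The technical arrays of a sample differed by up to 0.42, more than the difference of 0.10 between the group means. The probe was named through its symbol, and with a signal this close to the limit no fold is given for Fabp5.

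Ttr, the plasma partner of Rbp4, was above the limit on 0 of 6 retinoic acid arrays and 0 of 6 undifferentiated arrays, so no fold is given. Its log2 levels were 5.90, 5.87 and 5.90 in retinoic acid samples and 5.85, 5.86 and 5.67 in undifferentiated samples. These 6 values did not overlap between the groups but all lay below the limit, and the highest net intensity on any array was 19.5. Rbp4 was thus measured on all 12 arrays while its partner was not detected above background on any.

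Genes that serve the members were read from lists made with earlier results of these data known, with each gene represented by its brightest probe. Over the 15323 tested genes 17.6% were called higher and 12.3% lower, with a median log2 difference of 0.0034. Among the tested relatives of Crabp1, Crabp2 and Fabp5 in the intracellular lipid-binding protein family, 1 was lower. Fabp3, a fatty acid carrier first known from heart muscle, fell by 1.26 (adjusted p = 0.00586).

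Of 8 tested genes of retinol transport, uptake and esterification, the steps on either side of Stra6, 1 was higher and 1 lower, with a median of 0.03. Lrp2, or megalin, an endocytic receptor that takes up Rbp4 in the kidney, rose by 0.85 (adjusted p = 0.0368), but its 3 dimmer probes were not called (0.75, 0.08 and 0.31) and its call was lost in 10 of 22 alternatives, 5 of which leave out a sample (any but undifferentiated replicate 2). Stra6l, a relative of Stra6 that also takes up retinol from Rbp4, was near the limit and was not called (-0.11). Rlbp1, a retinaldehyde carrier of the retina, fell by 0.83 (adjusted p = 0.00946). Lrat, which esterifies retinol after its uptake, was above the limit on 1 of 6 retinoic acid arrays and 2 of 6 undifferentiated arrays and was not tested.

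Of 12 tested enzymes that make or break down retinoic acid, the ligand that Crabp1 and Crabp2 carry, 6 were higher and 0 lower, with a median of 1.24. Cyp26a1 and Cyp26b1, which oxidise retinoic acid, rose by 8.04 and 6.70. Both sizes are approximate, since Cyp26a1 reached a net intensity of 42310, close to saturation, and was above the limit on 4 of 6 undifferentiated arrays, and Cyp26b1 was above it on 2 of 6. Dhrs3, which reduces retinaldehyde to retinol, rose by 5.89 (4.38 on a second probe) and Aldh1a1, which makes retinoic acid from retinaldehyde, by 2.76. The 95% interval of Crabp2 overlapped those of Cyp26b1 and Dhrs3, so the order of these 3 is not settled. The intervals of Rbp4 and Crabp1 overlapped those of Rdh10 (1.67) and Adh1 (1.48), each on its brightest probe. On dimmer probes the differences were smaller, at 0.62 (called) and 0.77 (not called) for Rdh10 and 0.996 (called) for Adh1.

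Of 6 tested receptors that Crabp2 and Fabp5 are known to serve, 1 was higher and 0 lower, with a median of -0.16. Rxra rose by 1.38 on its bright probe, with a difference of -0.05 on the dimmer one. Rarb was not called on its bright probe (-0.27) but was higher on a dimmer one (0.94, adjusted p = 0.032), which was above the limit on 6 of 6 retinoic acid arrays and 2 of 6 undifferentiated arrays. Ppard, the partner of Fabp5, was above the limit on 3 of 6 retinoic acid arrays and 2 of 6 undifferentiated arrays and was not tested. Of 6 tested target genes of Ppard, 1 was higher and 2 were lower, with a median of -0.40. Plin2, which coats lipid droplets, rose by 2.44, while Angptl4, an inhibitor of lipoprotein lipase, fell by 2.21 and Pdk4, an inhibitor of pyruvate dehydrogenase, fell by 1.54. Cpt1a, which admits fatty acids to mitochondria, was not called on its bright probe (-0.48) but was lower on a dimmer one (-2.41, adjusted p = 0.000149).

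**Figure D3:**
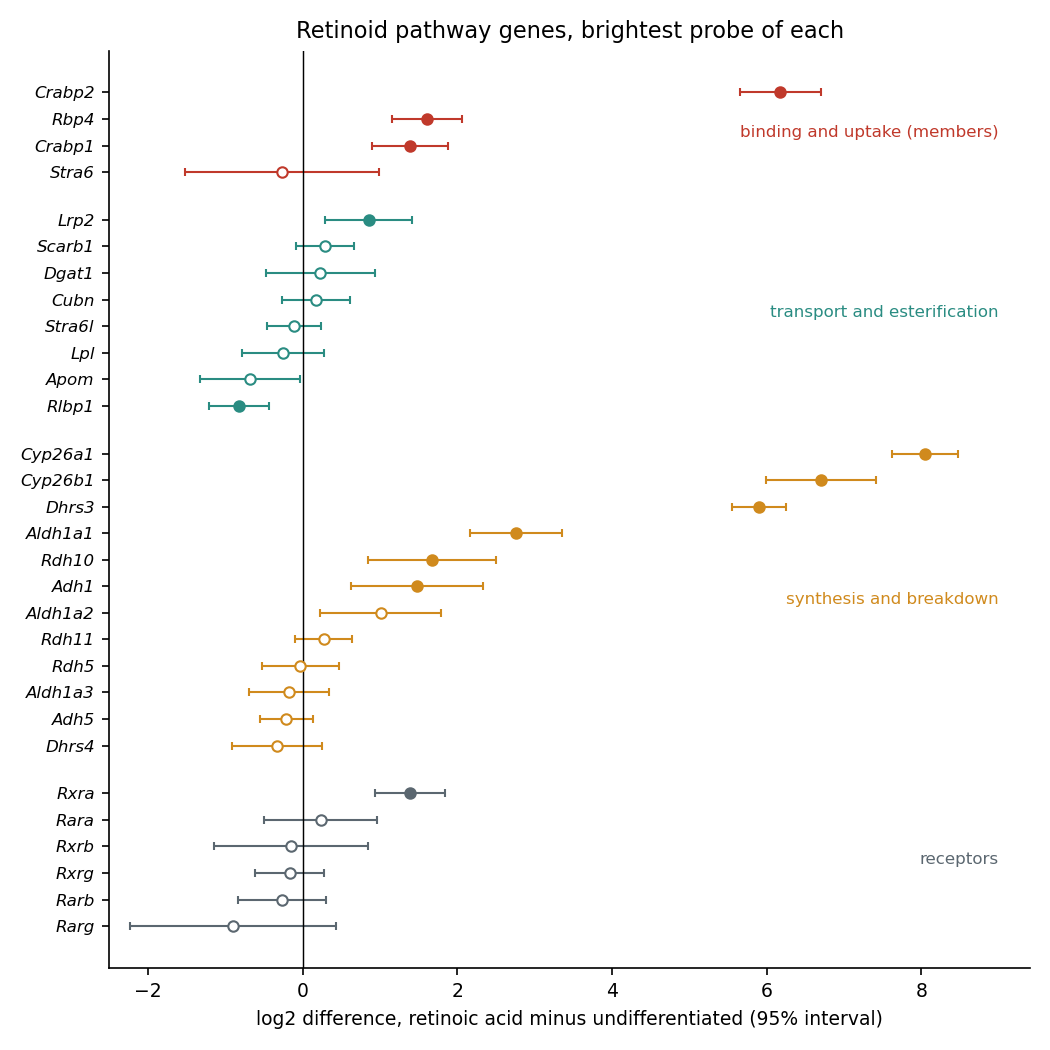
Log2 difference, retinoic acid minus undifferentiated, of the tested members and of the tested genes of 3 retinoid lists (transport and esterification, synthesis and breakdown, and receptors), each by its brightest probe, with bars for the 95% interval. Filled points were called at an adjusted p under 0.05 and open points were not. The interval of Crabp2 overlaps those of Cyp26b1 and Dhrs3, and Stra6 has one of the widest intervals.

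Rbp4 and Ttr are known products of visceral endoderm and liver, so markers of these cells were set beside them. Of 22 tested markers 7 were higher and 1 lower, with a median of 0.08, and their summed normalized intensity was 25106 to 28853 in retinoic acid samples against 14032 to 19101 in undifferentiated samples. Without Cldn6, the marker with the largest intensity difference, the sums were 18789 to 22697 in retinoic acid samples and 12678 to 18730 in undifferentiated samples. Gata6 (4.11, and 1.51 on a second probe), Sox17 (3.78) and Cldn6 (2.68) rose, and Spink1 fell by 3.42. Of the secreted products, Apoa1, Apoa4, Fga and Fgb were above the limit on 0 of 6 retinoic acid arrays, as was Ttr, whereas Apob, Fgg, Apoe and Trf were above it on 6 of 6 and Apoa2 and Apoc2 on 5 of 6, none of them called. Afp (-0.41), Foxa2 (-0.17) and Hnf4a (-0.03) were not called. The part of these cells in the Rbp4 rise was not tested.

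Crabp1 and Crabp2 are also known from neural tissue and from mesenchyme, and marker lists of both kinds of cell were counted. Of 11 tested markers of neural progenitors and neural crest, 2 were higher and 1 lower, with a median of -0.07 and a summed normalized intensity of 4396 to 5149 in retinoic acid samples against 3710 to 5262 in undifferentiated samples. Zic1 (3.08) and Pax6 (1.71, but -0.25 and not called on a second probe) rose and Foxd3 fell by 2.44, and Neurog2 was above the limit on 0 of 6 retinoic acid arrays. The sizes for Zic1 and Foxd3 are approximate. Zic1 was above the limit on 2 of 6 undifferentiated arrays and Foxd3 on 1 of 6 retinoic acid arrays. Sox9 was not called on its brightest probe (-0.58) but was higher on another (3.59, adjusted p = 3.13e-05 in limma). That other Sox9 probe was above the limit on 6 of 6 retinoic acid arrays and 0 of 6 undifferentiated arrays, so its size is approximate too. Of 8 tested feeder fibroblast markers, 5 were higher and 1 lower, with a median of 1.81 and a sum of 16449 to 17305 in retinoic acid samples against 2274 to 3049 in undifferentiated samples. Tagln made up most of that difference, and without it the sums were 2977 to 4101 in retinoic acid samples and 1971 to 2868 in undifferentiated samples. Tagln (5.25), Col1a2 (3.39), Pdgfrb (2.47) and Col3a1 (2.09) were among those that rose. Thy1 fell by 2.07, and by 0.76 on a dimmer probe, and Postn was above the limit on 0 of 6 retinoic acid arrays. Fn1 was not called on its brightest probe (-0.17) but was lower on its dimmer ones (-1.61 and -0.74). Col1a1 was not called on its brightest probe (-0.38) but was higher on a dimmer one (0.57). The part of these cells in the rises of Crabp1 and Crabp2 was not tested.

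The genes whose values followed each member most closely were found by the root mean square (RMS) difference over the 6 samples, with each probe centred on its own mean. For Crabp2 the closest were Dhrs3 (RMS 0.25), Igfbp5 (0.27), a binding protein of insulin-like growth factors, and Igf2 (0.35), one of those growth factors. For Rbp4 they were Rnf144a (0.077), a ubiquitin ligase, Elovl2 (0.079), which elongates polyunsaturated fatty acids, and Mmd (0.081). For Crabp1 they were Col6a1 (0.12), a chain of collagen VI, Eid1 (0.12) and Dag1 (0.13), which encodes dystroglycan.

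For Stra6 the closest were Ermard (0.10), Srrm3 (0.10) and Mitf (0.12), a transcription factor of pigment cells. These 3 were, like Stra6, lowest in undifferentiated replicate 2 and highest in undifferentiated replicates 1 and 3. In that sample Ermard was at 9.04, Srrm3 at 10.10 and Mitf at 8.19 in log2 level, against 11.05, 12.12 and 10.46 in undifferentiated replicate 1. The pattern of Stra6 over the 6 samples was therefore shared by other probes, none of which was called (adjusted p = 0.662 for Ermard, 0.829 for Srrm3 and 0.671 for Mitf in limma). Likeness was measured on the same 6 samples and with many genes to choose from, so it describes these samples.

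**Figure D4:**
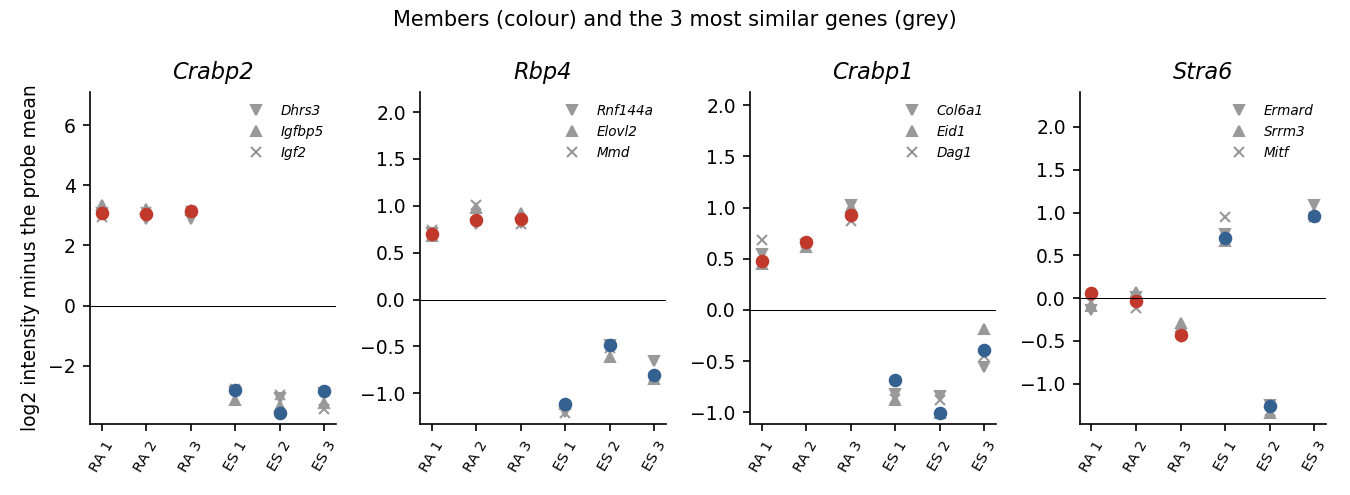
Log2 level minus the probe's own mean in each sample, with retinoic acid samples (RA 1 to 3, red) left of undifferentiated samples (ES 1 to 3, blue), for 4 members and, in grey, the 3 genes with the smallest RMS difference from each. Crabp2, Rbp4 and Crabp1 and the genes like them split by group, while Stra6 and the genes like it dip in ES 2; the vertical scales differ.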

How the data were processed

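Spot values in the scanner files are linear net mean intensities, per the file headers, so the authors' software had already removed local background. Arrays had 1 colour (Cy3) after 1 round of amplification, per the labels' protocols. The authors also deposited processed intensities, used as an alternative, whose log2 values correlated at 0.999997 or more with the quantile-normalized log2 values computed here. R 2.15.0 and limma are named in the submitters' processing notes. Intensities of the 12 arrays were quantile-normalized, 50 was added, log2 was taken and technical arrays were averaged. A probe was tested if above the background limit on at least 4 of 6 arrays of either group, which left 26587. Retinoic acid samples (3) were set against undifferentiated samples (3) in limma 3.58.1 (lmFit and eBayes, two-sided, R 4.3.3) with no covariate and Benjamini-Hochberg adjustment over all tested probes. Alternatives changed the scaling, the value added before log2, the filter, the technical arrays used, the handling of several probes, the blocks, the variance model and the threshold, or left out 1 sample or the array with the doubtful header. Probes were named by RefSeq accession (GRCm38.p6 table) for 27471, by symbol for 5484 and by older symbol for 669. Named genes are the members, up to 4 called genes of each list by size of change, list genes that a statement on a member turns on, and the 3 genes closest in pattern to each tested member. The members and lists were chosen with earlier results of these data known. Tested on simulated data for this comparison (26587 probes, 200 of them changed, 20 runs), the fit recovered 31.9% of changes of 1 on the log2 scale, 79.0% of changes of 2 and 97.0% of changes of 4, with 3.98% false among calls. In the data 25.5% of tested probes were called, a far larger share than was changed in the simulation, so recovery may differ there. In the header of the second array of undifferentiated replicate 2 the array is named as the first. Cyp26c1 and Fgf4 were not analysed here. A result that the rule for named genes covers is not reported here. No source used here gives the genome build of the array, and the coordinates printed are those of the RefSeq promoter table. Python 3.11.15 with matplotlib 3.10.9 drew the figures.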

Additional observations from a re-analysis of the deposited data

How the results depend on the processing

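Of the tested members, Crabp2, Rbp4 and Crabp1 kept direction and call in 22 of 22 alternatives, and Stra6 kept its sign and stayed uncalled in 19. With 1 sample left out the differences ran from 5.92 to 6.31 for Crabp2, 1.45 to 1.76 for Rbp4, 1.23 to 1.54 for Crabp1, -0.97 to 0.15 for Stra6 (0.02 without undifferentiated replicate 1), 0.04 to 0.19 for Fabp5 and 0.03 to 0.13 for Ttr. The difference of Stra6 was -0.57 with 75th percentile scaling and -0.54 with median scaling. Fabp5 differed by 0.48 with 1 and 0.29 with 10 added before log2, and Ttr by 1.01 and 0.35, both below or near the limit. With the replicate number as a block (replicate block) the differences could not change, as each group holds every number. They were 6.17 for Crabp2, 1.61 for Rbp4, 1.39 for Crabp1 and -0.27 for Stra6. The adjusted p-values in limma were then 0.000301, 0.00265, 0.00432 and 0.727 in that order, with no member call changed. Deviations of same-numbered samples from their group means correlated at -0.05, 0.28 and 0.14. Retinoic acid replicate 1 correlated best with undifferentiated replicate 3 (0.13), and retinoic acid replicate 3 with undifferentiated replicate 1 (0.25). With 3 samples in each group, these values cannot decide whether the numbers pair the samples. Over both groups the brightest probe had a net intensity of 44234 to 44752 on replicate 1 arrays and 42952 to 43900 on replicate 2 arrays. On replicate 3 arrays it was 48088 to 49949, so this value followed the replicate number in both groups. Probes called higher numbered 2365 to 4054 and lower 1608 to 3648 with 1 sample left out (2365 and 1608 when retinoic acid replicate 3 was left out, 2449 and 1642 when it was retinoic acid replicate 1), and 2121 and 1432 at an adjusted p under 0.01. Transport genes called higher were 0 under both other scalings, with 1 added, with no filter or at an adjusted p under 0.01, and 0 to 1 with 1 sample left out. Lower calls were 2 among relatives (replicate block, mean of probes), 2 among transport genes (replicate block, sample as a random block), 1 among synthesis and breakdown genes (both other scalings), 2 among visceral endoderm markers (random block) and 2 among fibroblast markers (mean of probes). With 1 sample left out they were 1 to 2 among relatives and among transport genes (2 without retinoic acid replicate 2), 1 to 3 among visceral endoderm markers (3 without undifferentiated replicate 2, 2 without undifferentiated replicate 3), 0 among synthesis and breakdown genes and 1 among fibroblast markers, and higher calls of synthesis and breakdown were 4 (without retinoic acid replicate 3) to 7. Above the limit on all 12 arrays, neural markers had 1 higher and 0 lower and fibroblast markers 2 higher, with fewer genes tested. The cause of other changes was not tested. Signal over background limits Fabp5 and Ttr.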

Other observations

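The genes next to the tested members on the chromosome were looked up in the RefSeq table after the members' values had been seen, 2 protein-coding genes on either side. Beside Crabp2, which rose by 6.17, Isg20l2 (0.17), Rrnad1 (-0.01), Bcan (-0.33) and Nes (-0.35), which encodes the neural progenitor filament nestin, were not called. Beside Crabp1, Dnaja4, which encodes a co-chaperone, rose by 1.04 ± 0.15 (SE; adjusted p = 0.00262 in limma), while Wdr61 (-0.14), Ireb2 (-0.23) and Hykk (0.02) were not called. Beside Rbp4, Cep55, a protein of cell division, fell by 1.14 (adjusted p = 0.00947) and Fra10ac1 fell by 0.91 (adjusted p = 0.017), Ffar4 (0.32), a fatty acid receptor, was not called, and Pde6c was above the limit on 0 of 6 retinoic acid arrays and was not tested. Beside Stra6, Ccdc33 (0.42) and Islr (0.22) were not called, and Cyp11a1 and Islr2 were above the limit on 0 of 6 retinoic acid arrays and were not tested.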
